A study of Mus musculus with 40 samples.

Results

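The SLAM (signaling lymphocytic activation molecule) family receptors were followed through sorted cells of mouse colon tumors, healthy colon and blood. The set held 9 genes, Ly9, Cd48, Cd84, Slamf1, Slamf6, Slamf7, Slamf8, Slamf9 and Cd244 (Cd244a in GENCODE), and each symbol matched 1 of the 45706 genes measured. The members were chosen by family and selected on a measured value, since Ly9 was known to be among the largest falls from blood to tumor neutrophils, so the comparison of tumor with blood neutrophils is given below as a description, without a test of its members.

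SLAM receptors are immunoglobulin-type surface proteins of blood cells. Most of them bind a copy of themselves on a neighboring cell, whereas Cd244 (2B4) binds Cd48, which is held in the membrane by a lipid anchor and has no tail of its own. Ly9, Cd84, Slamf1, Slamf6, Slamf7 and Cd244 carry tyrosine motifs in their tails that recruit the small adaptors of the SAP family (Sh2d1a, Sh2d1b1, Sh2d1b2) or, in their place, phosphatases, while Slamf8 and Slamf9 have short tails without such motifs. They are best known from T, B and natural killer (NK) cells, and Cd48, Cd84 and Slamf8 also from myeloid cells.

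The 40 libraries made 10 groups of 4. Tumor-bearing mice carried floxed Apc and the Cdx2CreERT2 transgene, in which the Cdx2 promoter drives a tamoxifen-dependent Cre in colon epithelium and not in leukocytes, on a strain labelled C57Bl6/Sv129 with a number that counts up from sample to sample, and received tamoxifen (25 mg/kg) at 8 to 10 weeks of age. Healthy mice were labelled C57Bl6, with no transgene and no treatment, and the labels give them no age. In every comparison of tumor-bearing with healthy mice, the tumor, the strain, the transgene and tamoxifen therefore cannot be told apart, and SLAM genes are known to differ in sequence between C57BL/6 and 129 mice. Neutrophils were sorted as CD45+CD11b+MHCII-Ly6G+Ly6C-low cells and monocytes as CD45+CD11b+MHCII-Ly6G-Ly6C-high cells, from blood of healthy and tumor-bearing mice and from tumors; epithelial cells (EpCAM+CD45-) and stromal cells (EpCAM-CD45-) came from healthy colon and tumors. By their titles, 3 healthy blood monocyte libraries and 1 blood neutrophil library of tumor-bearing mice each pooled 2 animals, and the neutrophils of some of the pooled healthy mice are separate libraries.

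Depth ran from 10717873 to 38002939 counts per library (median 16338416.5), so a member at a few counts is close to the limit of detection. The mitochondrial share ranged from 5.34% to 83.85%, the latter in healthy epithelial replicate 4. The targeted gene, Apc, read 2.14 to 3.34 RPKM in healthy epithelial replicates 1 to 3, 0.343 in replicate 4 and 5.97 to 6.51 in tumor epithelium; a total over the gene does not isolate the floxed part and so checks nothing. The summed RPKM of 8 neutrophil markers was 1927 or more in the 12 neutrophil libraries and 265 or less in the 12 monocyte libraries. Several libraries stood apart from their labels. Tumor neutrophil replicate 1 held 127 RPKM of 8 summed epithelial markers (10.7 to 32.2 in the other tumor neutrophil libraries, at most 1.51 in blood neutrophils). Tumor neutrophil replicate 2 had 9742 genes over 10 counts, against 14257 to 16959 in the other 3, and without it 3624 genes in place of 2230 were called between tumor and blood neutrophils. Tumor stromal replicates 1 and 2 held 191 and 111 RPKM of the epithelial markers, against 2.29 to 14.1 in healthy stroma. The 6 summed fibroblast markers, among them Col1a1 and Dcn, were at 5.97 to 24.0 RPKM in tumor stroma and at 355 to 2010 in healthy stroma.

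All 9 genes lie on mouse chromosome 1 (mm10). Cd244 (chr1:171559193-171609746, + strand), Ly9 (chr1:171588624-171607410, - strand), Slamf7 (chr1:171632403-171653035, - strand), Cd48 (chr1:171682009-171705258, + strand), Slamf1 (chr1:171767127-171801184, + strand), Cd84 (chr1:171839697-171890718, + strand) and Slamf6 (chr1:171917515-171953170, + strand) form a cluster of 394 kb. Slamf9 (chr1:172475358-172478575, + strand) and Slamf8 (chr1:172581758-172590568, - strand) follow after a gap of 522 kb. Ly9 lies within the span of 1 of 4 annotated Cd244 transcripts on the opposite strand, and the exons of the genes share 0 bases. Slamf7 exons share 423 bases with the antisense gene Gm37787. The library kit does not mark strand, so reads over those bases cannot be assigned to Slamf7 or Gm37787, and Slamf7 values are uncertain to that extent.

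The 250 bases before the RefSeq start are printed for 4 members, since their levels split most clearly between neutrophils (Cd84, Cd244) and monocytes (Cd48, Slamf8) in the results that follow; the sequences are from RefSeq (GRCm38.p6), read 5′ to 3′ on the strand of the gene, and capitals mark matches to any of 6 motifs searched on both strands. The stretches are chr1:171839447-171839696 (Cd84, +), chr1:171558943-171559192 (Cd244, +), chr1:171681742-171681991 (Cd48, +) and chr1:172590569-172590818 (Slamf8, -).
Cd84: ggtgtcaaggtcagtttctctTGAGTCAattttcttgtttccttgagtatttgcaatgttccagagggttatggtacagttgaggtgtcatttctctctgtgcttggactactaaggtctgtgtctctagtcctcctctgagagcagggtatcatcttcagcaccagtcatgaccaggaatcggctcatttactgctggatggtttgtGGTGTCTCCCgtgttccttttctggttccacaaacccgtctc
Cd244: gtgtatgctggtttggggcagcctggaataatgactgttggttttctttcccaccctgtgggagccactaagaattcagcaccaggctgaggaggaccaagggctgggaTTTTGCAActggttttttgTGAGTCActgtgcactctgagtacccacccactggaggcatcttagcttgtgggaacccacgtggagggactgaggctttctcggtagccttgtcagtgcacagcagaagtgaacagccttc
Cd48: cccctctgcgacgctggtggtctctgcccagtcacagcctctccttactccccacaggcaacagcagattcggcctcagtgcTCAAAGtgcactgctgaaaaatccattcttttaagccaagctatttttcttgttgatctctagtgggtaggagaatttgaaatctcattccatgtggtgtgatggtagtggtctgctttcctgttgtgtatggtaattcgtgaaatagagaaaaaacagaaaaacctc
Slamf8: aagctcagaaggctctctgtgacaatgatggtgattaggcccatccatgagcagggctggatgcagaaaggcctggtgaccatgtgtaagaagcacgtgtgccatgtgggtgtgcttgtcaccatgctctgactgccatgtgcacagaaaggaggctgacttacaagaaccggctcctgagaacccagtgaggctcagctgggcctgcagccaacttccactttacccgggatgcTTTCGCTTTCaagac
RefSeq entries were found for 8 of the 9 members. TGANTCA, the site of AP-1 factors, was held by 3 of the 8 (Cd84, Cd244 and Slamf7) and by 6.75% of all 32851 promoters over the same 250 bases. The C/EBP-type TTGCNNAA was held by 1 (Cd244; 9.56% of all promoters), the interferon-response element GAAA-NN-GAAA by 1 (Slamf8; 2.98%) and the TCF/LEF-type CTTTGA by 2 (Cd48 and Slamf9; 13.8%). The NF-kB-type GGGA-NNNN-CC was held by 2 (Cd84 and Slamf6; 17.6%) and the purine-rich Ets box GAGGAA by 1 (Slamf9; 23.3%). No match overlapped a match to another of the motifs in these promoters.

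Neutrophils and monocytes of healthy blood held the RNA of these receptors in different proportions. Values are RPKM, which are scaled for gene length and can be set side by side between genes. Of the summed group means of the 9 members (57.2 RPKM in neutrophils, 58.2 in monocytes), Cd244 made 41.1% and Cd84 35.7% in neutrophils, whereas Cd48 made 55.0% and Cd244 18% in monocytes. In the edgeR quasi-likelihood test across all genes, where a call needed both an adjusted p (Benjamini-Hochberg) under 0.05 and a log2 difference beyond 1.5 in size, 4 members were called, 2 higher and 2 lower in neutrophils, of 8 that passed the count filter; 37.1% of all 15034 genes tested were called in this comparison (16.7% higher and 20.4% lower). The RPKM of 4 of the 8 did not overlap between the cell types, against 52.7% of all genes tested. The called share of the 8 members was thus above the background and the share without overlap was not, and neither is read further on so few genes.

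Cd84, a receptor that binds itself, was at 18.6, 20.3, 19.6 and 23.0 RPKM in the 4 healthy blood neutrophil libraries and at 3.04, 3.86, 4.27 and 3.55 in the monocyte libraries. The groups did not overlap, and Cd84 was higher in neutrophils by 3.25 on the log2 scale (SE 0.205, edgeR adjusted p = 4.41e-06). Cd244, the receptor for Cd48, was at 32.4, 22.1, 22.9 and 16.6 RPKM in neutrophils and at 11.8, 11.9, 9.78 and 8.46 in monocytes. It was higher in each neutrophil library, by 1.95 (SE 0.222, edgeR adjusted p = 9.72e-05). On the log2(RPKM + 1) scale the difference of Cd244 was 1.07 and on the log2(RPKM + 0.1) scale 1.13, below the fold limit. On these scales the median of all genes moved by -0.186 and -0.556 from its place in the count fit, which bears on every member in this comparison.

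Cd48, the ligand of Cd244, ran the other way, at 1.28, 1.35, 1.48 and 2.33 RPKM in healthy neutrophils and 35.2, 38.5, 29.8 and 24.5 in healthy monocytes (difference -3.51, SE 0.296, edgeR adjusted p = 1.86e-05). Slamf8, a short-tailed member known from macrophages, was at 1.35, 0.713, 3.37 and 1.65 RPKM in the monocytes. In the neutrophils it had 1 count in all 4 libraries together, against 1366 in the monocytes, a ratio of 1254 per count sequenced (exact 95% interval 225 to 49572, which covers counting error only). Slamf8 is counted among the members called here, although it passed the filter only through the monocytes, and no test of it is given. Ly9, a receptor best known from T and B cells, was at 9.25, 7.52, 9.92 and 6.23 RPKM in neutrophils and 6.69, 9.11, 5.44 and 5.70 in monocytes. Its levels overlapped; in the count fit Ly9 was 1.09 higher in neutrophils (SE 0.256, adjusted p = 0.0059), under the fold limit. The remaining members were low in both: group means were 2.69 and 2.51 RPKM for Slamf7, and 0.674 or less for Slamf1, Slamf6 and Slamf9.

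Markers of other blood cells were also present in these libraries. The 6 summed platelet markers were at 2.26 to 231 RPKM in healthy neutrophils and 1.75 to 116 in healthy monocytes. The 5 summed erythroid markers were at 3.83 to 458 and 1.01 to 541 RPKM. The 7 summed NK markers were at 18, 32.4, 14.4 and 2.09 RPKM in the healthy monocyte libraries and at 0.118 to 1.37 in the neutrophil libraries. The 10 summed B-cell markers were at 39.2 to 60.7 RPKM in monocytes and 16.9 to 32.6 in neutrophils, with Ighm at a mean of 46.0 and 17.3, and the 11 T-cell markers at 1.62 to 3.24 and 1.54 to 4.97. The mitochondrial share was 5.34% to 14.5% in neutrophils and 18.7% to 31.8% in monocytes. The part of these markers and of the mitochondrial share in the levels of the members was not tested.

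**Figure D1:**
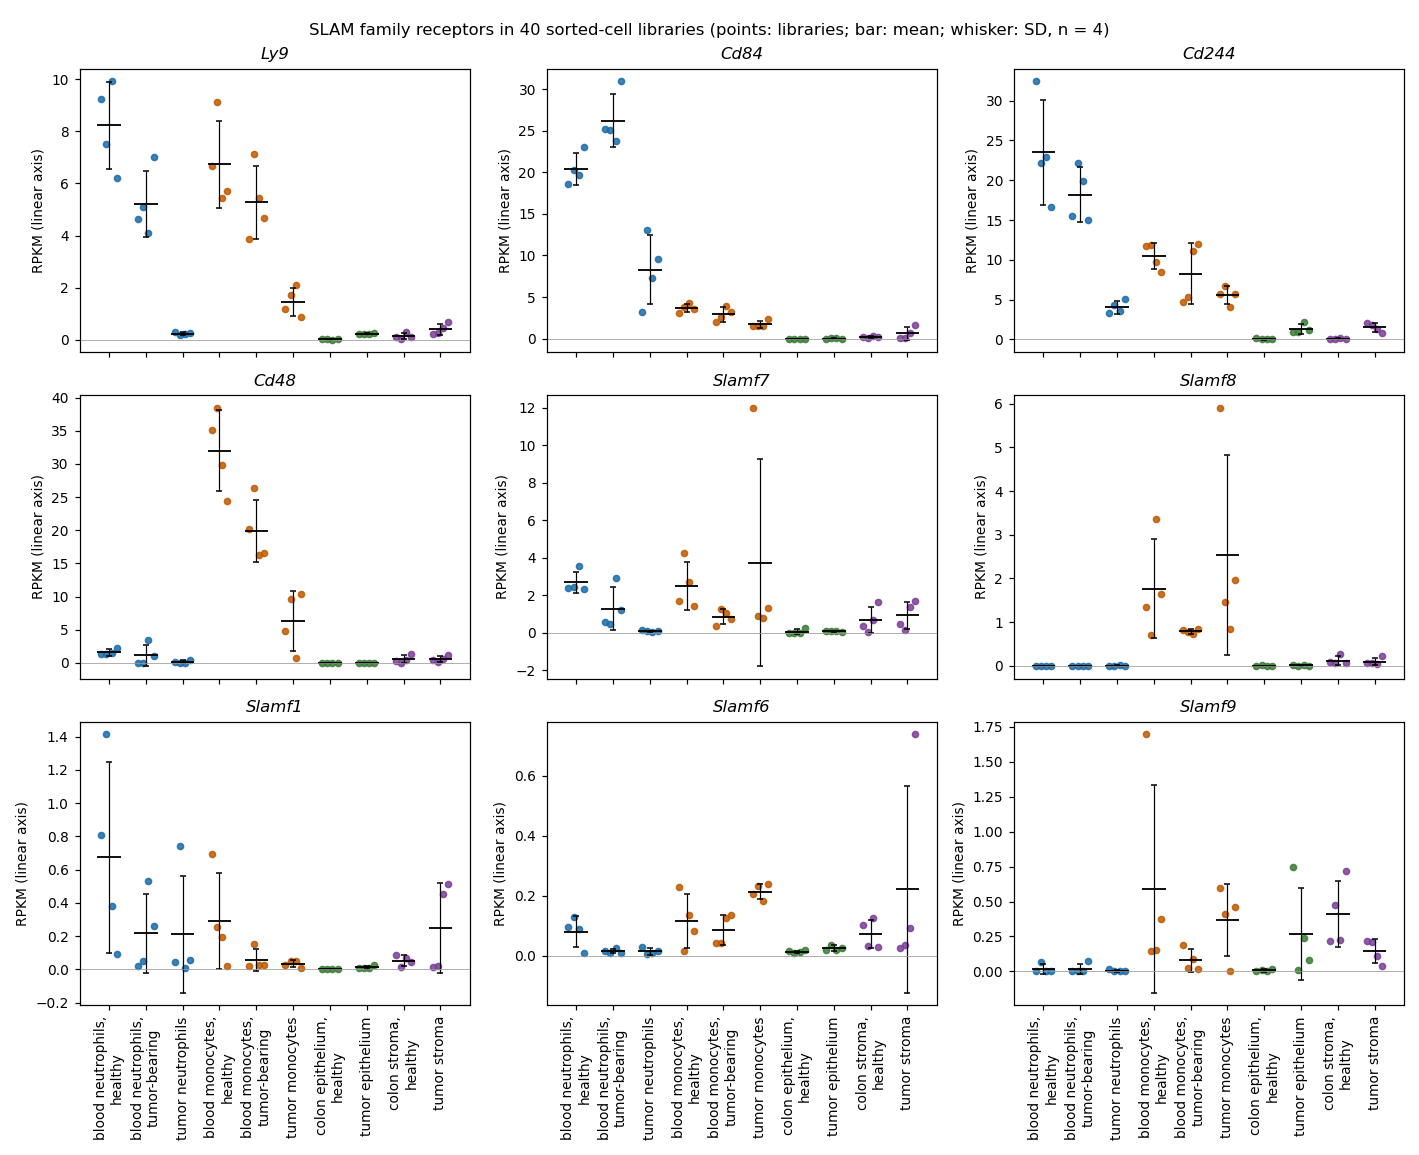
RPKM (linear axes) of the 9 SLAM family genes in the 40 libraries; points are libraries, colored by cell type, bars are group means and whiskers SD (n = 4). Cd84 and Cd244 are highest in blood neutrophils and Cd48 in blood monocytes, and Ly9 falls from 4.09 to 7.03 RPKM in blood neutrophils of tumor-bearing mice to 0.169 to 0.289 in tumor neutrophils.

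In tumor neutrophils, the summed group means of the family were 13.1 RPKM, against 52.3 in blood neutrophils of tumor-bearing mice. The mitochondrial share was 17% to 37.5% in the former and 9.36% to 16.8% in the latter, without overlap, and its part in the differences below was not tested. Ly9 was at 0.289, 0.169, 0.217 and 0.258 RPKM (34 to 54 counts) in the 4 tumor neutrophil libraries. In blood neutrophils it was at 4.63, 5.09, 4.09 and 7.03 RPKM in tumor-bearing mice (702 to 1489 counts) and at 6.23 to 9.92 in healthy mice. The groups did not overlap, and the fitted difference was -4.45 on the log2 scale (SE 0.393), or -5.12 against healthy blood. In these bulk libraries, fewer cells that express a gene and less RNA per cell cannot be told apart.

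Cd244 in the same contrast was at 15.6, 22.2, 19.9 and 15.0 RPKM in blood and 3.32, 4.27, 3.54 and 5.11 in tumor neutrophils (-2.05, SE 0.365). Slamf7, which binds itself and is known from NK and plasma cells, was at 0.584, 0.445, 2.94 and 1.19 RPKM in blood and at 0.136, 0.0727, 0.0397 and 0.0703 in tumor (-4.06, SE 0.80). Cd84 was at 25.2, 25.0, 23.7 and 30.9 RPKM in blood and 3.24, 13, 7.28 and 9.63 in tumor (-1.43, SE 0.527), lowest in the tumor library with the most epithelial marker RNA; without tumor neutrophil replicate 2 the difference was -2.09. Cd84 nevertheless made 63.4% of the family's summed RPKM in tumor neutrophils, and Ly9 1.78%, against 50.1% and 9.96% in blood. Cd48 was at 0.067, 0.0031, 3.47 and 1.07 RPKM in blood and at most 0.493 in tumor, with groups that overlapped. Slamf1 stood at 0.739 RPKM in tumor replicate 2 and at 0.056 or less in the others, and Slamf6, Slamf8 and Slamf9 were at 18 counts or fewer in each tumor neutrophil library.

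Of the 6 members that passed the count filter here, 3 (Ly9, Cd244 and Slamf7) lay past both limits, all lower in tumor; over all 13674 genes tested 16.3% were called (11.9% higher and 4.41% lower). The groups did not overlap for 4 of the 6, and for 27.4% of all genes. Since this contrast chose the set, nothing is read from these counts. The B-cell markers summed to 2.37 to 7.56 RPKM in blood and 0.565 to 4.16 in tumor neutrophils, the T-cell markers to 1.11 to 4.68 and 1.08 to 2.37, and 6 markers of immature neutrophils (Ngp, Camp and others) to 170 to 524 and 8.38 to 70.2. Platelet markers summed to 2.52 to 42.2 RPKM in blood and 0.154 to 1.83 in tumor neutrophils, and erythroid markers to 7.98 to 762 and 4.6 to 112. The part of all these markers in these differences was not tested.

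Ly9 was also lower in tumor monocytes, a comparison the choice of the set did not use. It was at 1.18, 1.70, 2.08 and 0.852 RPKM in tumor monocytes and at 3.86, 7.13, 5.42 and 4.68 in blood monocytes of tumor-bearing mice. The groups did not overlap, and Ly9 fell by 1.60 on the log2 scale (SE 0.361, edgeR adjusted p = 0.0128). Without tumor monocyte replicate 4 the difference was -1.39 and without blood monocyte replicate 2 -1.38, with adjusted p of 0.03 and 0.0327, so that the fold limit was no longer passed; it was also missed on the log2(RPKM + 1) scale (-1.36). The B-cell markers were also lower in tumor monocytes (3.71 to 14.2 RPKM, against 18.2 to 66.0 in blood), whereas the T-cell markers were at 1.14 to 1.48 and 0.957 to 1.91. Platelet markers were at 0.316 to 1.87 RPKM in tumor and 1.49 to 37.7 in blood monocytes, and erythroid markers at 0.662 to 1.85 and 4.84 to 599. The part of any of these in the fall of Ly9 was not tested.

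Slamf8 rose in tumor monocytes, at 5.90, 1.46, 0.837 and 1.97 RPKM against 0.819, 0.774, 0.725 and 0.849 in blood (1.95, SE 0.556, edgeR adjusted p = 0.036). That call was narrow. The difference was 1.06 with adjusted p = 0.108 without tumor monocyte replicate 1, and the adjusted p was 0.0523 without tumor replicate 4 and 0.0881, 0.0759, 0.0858 and 0.0785 without blood replicates 1, 2, 3 and 4. The call held with DESeq2 and other size factors and was lost with limma-voom (adjusted p = 0.0828), with a replicate block (0.101), without the count filter (0.0561), with all 40 libraries in the fit (0.0658), on both log2 RPKM scales (0.139 and 0.11) and against healthy blood (0.874, adjusted p = 0.389). Slamf7 was at 12.0 RPKM in the same tumor monocyte replicate 1 and at 0.887, 0.765 and 1.3 in the others, with 0.361 to 1.27 in blood. Its difference of 2.41 (adjusted p = 0.0959) became 0.42 (adjusted p = 0.617) without that library. The summed macrophage (21.6 RPKM), dendritic-cell (0.964), T-cell (1.32) and NK (0.361) markers of replicate 1 lay within or just beyond the ranges of the other 3 tumor monocyte libraries (13.6 to 29.8, 0.249 to 1.3, 1.14 to 1.48 and 0.0242 to 0.347). Its sum over the immature neutrophil list was the highest of the 4, at 127 against 27.5 to 87.3. Only 1 of the 6 genes on that list reached a mean of 1 RPKM in tumor monocytes, so the sum does not stand for the list.

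Cd48, at 4.85, 9.67, 0.693 and 10.3 RPKM in tumor monocytes, lay below all 4 blood monocyte libraries (20.1, 26.4, 16.3 and 16.5), but its spread was wide (-1.44, SE 0.586, adjusted p = 0.124); against healthy blood, at 24.5 to 38.5, the difference was -2.03 with adjusted p = 0.0371. Slamf6 was low but higher in each tumor monocyte library (0.181 to 0.238 RPKM against 0.0418 to 0.135; 1.55, SE 0.541, adjusted p = 0.0762). Cd244 was at 4.11 to 6.76 RPKM in tumor and 4.65 to 12.0 in blood and Cd84 at 1.51 to 2.39 and 1.96 to 3.95, and both overlapped. Of the 9 members, all of which passed the filter, 2 were called, 1 higher and 1 lower, where 11.7% of 15280 genes were called (7.76% higher and 3.89% lower). Non-overlap between the groups was found for 3 of the 9 (Ly9, Cd48 and Slamf6), and for 27.2% of all genes.

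In blood itself, no member differed by the call rule between tumor-bearing and healthy mice. In neutrophils, 0 of 7 members tested were called by edgeR or limma-voom and 1 by DESeq2 (Slamf6, -2.27, adjusted p = 0.0153), and 3 had an unadjusted p under 0.05 in edgeR; 4.01% of 13361 genes were called (1.79% higher and 2.22% lower). Only Cd84 of the 7 did not overlap between the groups, as was the case for 14.1% of all genes. Cd84 was higher in each library of tumor-bearing mice, at 23.7 to 30.9 RPKM against 18.6 to 23.0, without passing (0.389, 95% interval 0.00301 to 0.775, adjusted p = 0.224). Ly9 was at 4.09 to 7.03 RPKM against 6.23 to 9.92 (-0.639, SE 0.243). The values of tumor-bearing mice are part of the contrast that chose Ly9, so this difference is a description with no test. Ly9 is among the 7 members tested and the 3 with an unadjusted p under 0.05. Slamf6, at 0.0097 to 0.0253 RPKM against 0.0088 to 0.129, differed by -2.29 (adjusted p = 0.0854) and passed without healthy replicate 4 (-2.65, adjusted p = 0.0201). Slamf7 differed by -0.986 (adjusted p = 0.346) and passed without replicate 3 of the tumor-bearing mice, the pooled library (-1.86, adjusted p = 0.0315). The immature neutrophil markers were at 170 to 524 RPKM in tumor-bearing and 4.15 to 15.6 in healthy mice, and the B-cell markers at 2.37 to 7.56 and 16.9 to 32.6; their part was not tested.

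In blood monocytes, 0 of 9 members were called by edgeR, limma-voom or DESeq2, and 4 had an unadjusted p under 0.05 in edgeR; 0.209% of 15313 genes were called (0.0914% higher and 0.118% lower). Of the 9, Slamf7 alone did not overlap between the groups, as was the case for 7.36% of all genes. All 9 differences were below 0, with a median of -0.582 against 0.0205 over all genes tested. Slamf7 was lower in each library of tumor-bearing mice, at 0.361, 1.27, 1.04 and 0.722 RPKM against 1.68, 4.23, 2.71 and 1.44 (-1.45, SE 0.48, adjusted p = 0.327). Cd48 was at 16.3 to 26.4 RPKM against 24.5 to 38.5 (-0.582, SE 0.223, adjusted p = 0.436). The NK markers, at 0.453, 0.0456, 28.9 and 0.649 RPKM in tumor-bearing and 18, 32.4, 14.4 and 2.09 in healthy mice, were lower in 3 of the 4 tumor-bearing libraries than in any healthy one; their part was not tested.

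**Figure D2:**
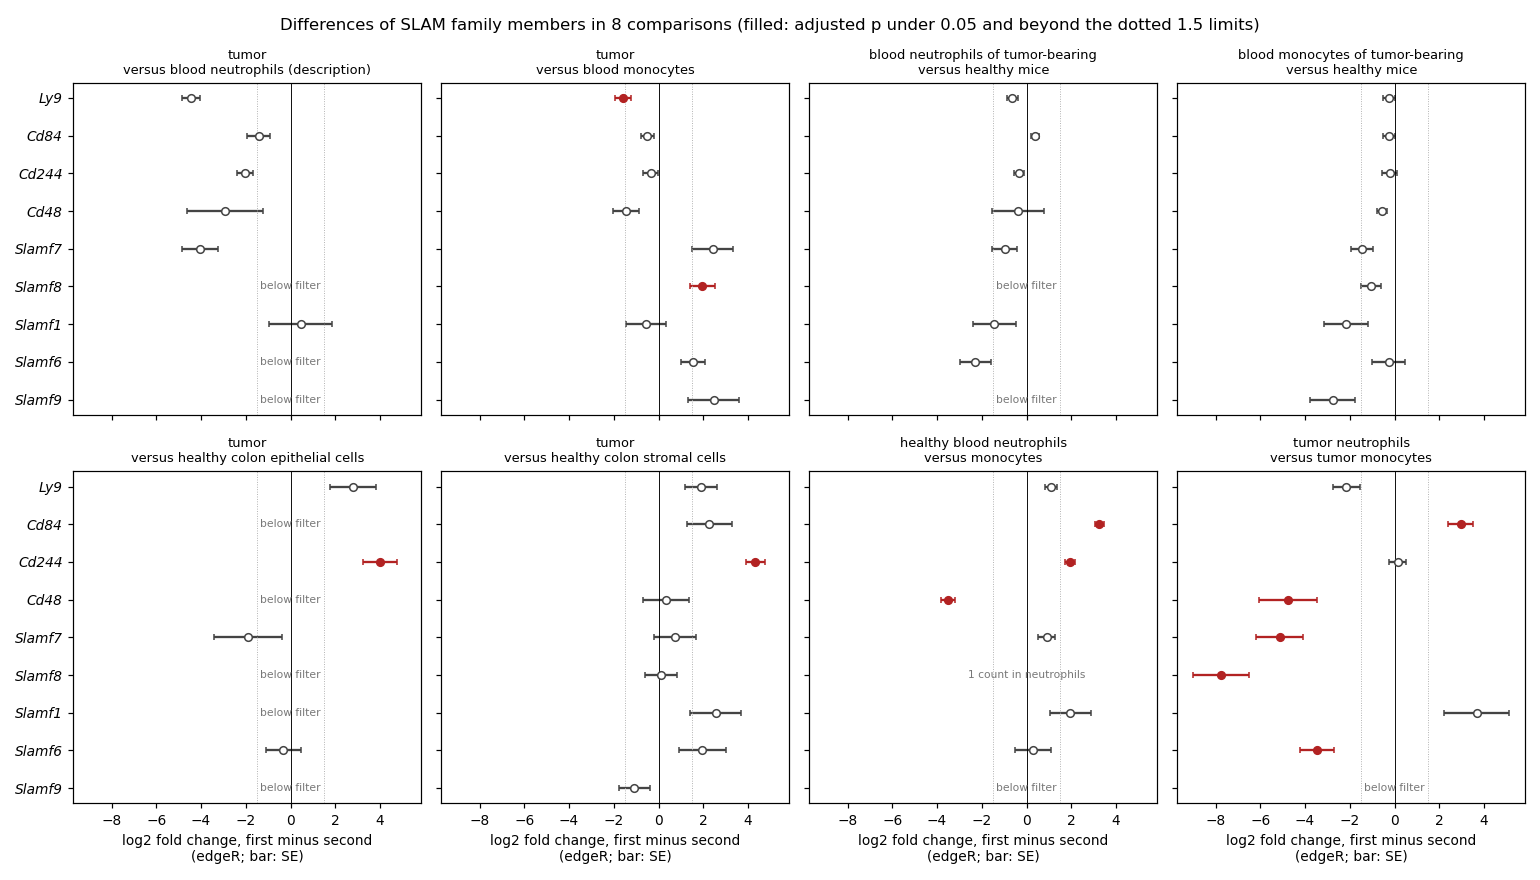
Log2 fold change (first group minus second, edgeR) of each member in 8 comparisons; whiskers are SE, filled points were called (adjusted p under 0.05 and beyond the dotted lines at 1.5), and no calls are drawn for tumor against blood neutrophils, which the choice of genes used. Cd84 is higher and Cd48 and Slamf8 lower in neutrophils than in monocytes in blood (Slamf8 with 1 count) and in tumors, and Cd244 is the member called in tumor epithelium and in tumor stroma. Cd244 in epithelium passed the filter only through the tumor libraries, and its filled point there is a description. The same holds, through the monocytes, for Cd48, Slamf6 and Slamf8 in tumor neutrophils against tumor monocytes.

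Within tumors, neutrophils and monocytes differed in 5 of the 8 members tested, where 7.45% of 15003 genes were called (4.65% higher and 2.80% lower in neutrophils). The cell types did not overlap for 6 of the 8, and for 20.6% of all genes. Cd84 was higher in neutrophils (3.24, 13, 7.28 and 9.63 RPKM against 1.51, 1.52, 1.56 and 2.39 in monocytes; 2.96, SE 0.566, edgeR adjusted p = 0.0107). Slamf8 was lower, with 1, 0, 5 and 0 counts in the neutrophil libraries against 945, 333, 147 and 436 in the monocyte libraries (-7.75, SE 1.25). It passed the count filter only through the monocytes, so this difference is a description with no test, although Slamf8 is counted among the 5. Both directions were those seen in healthy blood. Slamf7 was lower in neutrophils (0.0397 to 0.136 RPKM against 0.765 to 12.0, difference -5.13, SE 1.05, edgeR adjusted p = 0.0142). Cd48 (at most 0.493 against 0.693 to 10.3, difference -4.77, SE 1.31) and Slamf6 (0.0054 to 0.0301 against 0.181 to 0.238, difference -3.48, SE 0.766) were lower too. None of these 3 overlapped between the cell types. Cd48 and Slamf6 also passed the count filter only through the monocytes. Their differences are a description with no test, although both are counted among the 5.

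Several of these calls were sensitive to a single library. Slamf8 stayed past both limits when each of the 8 libraries was left out in turn. It had 6 counts in all tumor neutrophil libraries together, so nothing is read from that. Cd84 was lost without tumor monocyte replicate 1 (adjusted p = 0.0559) and Slamf7 without that library (-3.21, adjusted p = 0.0563) or neutrophil replicates 3 (0.0518) or 4 (0.0515). Slamf6 fell short of the limits without neutrophil replicates 3 or 4 or monocyte replicates 1, 2 or 4. Cd48 did so in 7 of the 8 cases, all but that of neutrophil replicate 4. Replicates 2 to 4 of these groups carry the same animal numbers in their titles, and replicates 1 carry different ones. With the replicate number as a block, which also joined replicates 1, Slamf6 was lost and the other 4 calls held.

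Ly9 was at 0.169 to 0.289 RPKM in tumor neutrophils and 0.852 to 2.08 in tumor monocytes (-2.16, SE 0.612). These tumor neutrophil values are the ones that chose Ly9, so its difference is a description here too, with no test, and Ly9 is among the 6 members counted as not overlapping. Cd244, which was higher in neutrophils in blood, was at 3.32 to 5.11 RPKM in tumor neutrophils and 4.11 to 6.76 in tumor monocytes, and the difference of 0.14 (95% interval -0.679 to 0.958, adjusted p = 0.852) changed sign without the count filter (-0.0231), with all 40 libraries (-0.0279), on the log2 RPKM scales (-0.374 and -0.445) and without neutrophil replicate 2 (-0.0994). The epithelial markers were at 10.7 to 127 RPKM in tumor neutrophils and 1.60 to 26.8 in tumor monocytes, and their part was not tested.

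Outside the sorted leukocytes, Cd244 was higher in tumor epithelium than in healthy epithelium. It was at 0.127, 0.0124, 0.0161 and 0.0226 RPKM (4 to 34 counts) in healthy and 0.95, 0.896, 2.24 and 1.22 RPKM (266 to 954 counts) in tumor epithelial libraries. The groups did not overlap, and Cd244 rose by 4.00 on the log2 scale (SE 0.766), or by 3.55 to 5.03 with any single library left out. It passed the count filter only through the tumor libraries, so this difference is a description with no test. Cd244 is counted as the only member called of 4 that passed the filter, where 15.4% of 16085 genes were called (7.52% higher and 7.88% lower). Of the 4, 2 (Cd244 and Ly9) did not overlap between tumor and healthy libraries, against 23.0% of all genes. On the log2(RPKM + 1) scale, on which so low a gene can move little, the difference was 1.12, under the fold limit.

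The leukocyte markers in the same libraries were low. Cd84 was at 0.0042 to 0.0353 RPKM in tumor epithelium. The 8 neutrophil markers summed to 0.954 to 4.56 RPKM there, below the 6.78 to 12.4 of healthy epithelium, the monocyte markers to 0.384 to 2.32, the T-cell markers to 0.269 to 1.28 and the NK markers to 0.0227 to 0.236. The summed markers of basophils and mast cells were higher in tumor epithelium (0.288 to 2.37 RPKM, against at most 0.0118), from Ms4a2 (0.0277 to 1.63) and Gata2 (0.26 to 0.71), while Cpa3 was at most 0.0214 and Mcpt8 had 0 counts in all 8 libraries. The endothelial list was higher too (4.29 to 4.61 against at most 0.365), through Cdh5 (mean 4.12) and not Pecam1 (0.164). Summed erythroid markers were also higher, at 21.9 to 62.9 RPKM in tumor and 0.494 to 15.8 in healthy epithelium. The part of all these markers in Cd244 was not tested.

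Ly9 was at 0.196, 0.220, 0.229 and 0.266 RPKM in tumor and at most 0.0261 (at most 7 counts) in healthy epithelium. The difference was 2.78 (SE 1.02), and 4.08 without healthy replicate 4. Ly9 passed the count filter only through the tumor libraries, so these differences are a description with no test. It was not called in the main fit. It lay past both limits without that library, with limma-voom, with DESeq2, with all 40 libraries and on the log2(RPKM + 0.1) scale, and nothing is read from that. Slamf7 rested on healthy replicate 4, with 100 counts against 1 in each of the other healthy libraries and a mitochondrial share of 83.85%. Its difference was -1.89 with that library and 4.07 without it. Slamf7 passed the filter only through the tumor libraries, so both differences are a description with no test. Slamf9 was at 56, 1, 27 and 11 counts in tumor and 3 counts in all in healthy epithelium, a ratio of 30.8 (exact 95% interval 10.2 to 152, counting error only), and was below the filter.

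Cd244 was likewise higher in tumor stroma, at 2.06, 1.88, 1.34 and 0.856 RPKM against 0.105, 0.0642, 0.133 and 0.108 in healthy stroma (4.32, SE 0.427, edgeR adjusted p = 0.00433; 4.10 to 4.51 with any single library left out). It was the only member called of 9, where 8.41% of 19082 genes were called (3.40% higher and 5.01% lower), and the only one whose groups did not overlap, against 21.5% of all genes. The summed epithelial markers in these tumor libraries were at 191, 111, 41.6 and 24.2 RPKM and the mitochondrial share at 55.4%, 62.9%, 27.4% and 24.8%, so that both were higher in the replicates with more Cd244, 1 and 2; healthy stroma had 2.29 to 14.1 RPKM and 15.6% to 24.9%. Without replicates 1 and 2, a choice made after seeing the data that leaves libraries still above healthy stroma in epithelial markers, Cd244 was at 3.71 (adjusted p = 0.00434), and Slamf1 (3.50, adjusted p = 0.0263) and Cd84 (3.16, adjusted p = 0.0464) were called as well.

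Slamf1 and Cd84 were in fact split within tumor stroma. Cd84 was at 0.0854, 0.0812, 0.729 and 1.66 RPKM and Slamf1 at 0.0127, 0.0210, 0.452 and 0.516, and with all 4 libraries neither passed (adjusted p = 0.205 and 0.21). Replicates 3 and 4, the higher ones, also held more neutrophil markers (1570 and 532 RPKM against 42.0 and 8.68), T-cell markers (10.9 and 18.9 against 0.981 and 1.06) and B-cell markers (13 and 66.2 against 3.33 and 2.31). Slamf6 stood at 0.738 RPKM in replicate 4 and 0.091 or less in the others. The part of these markers, and of the epithelial markers and the mitochondrial share in Cd244, was not tested.

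**Figure D3:**
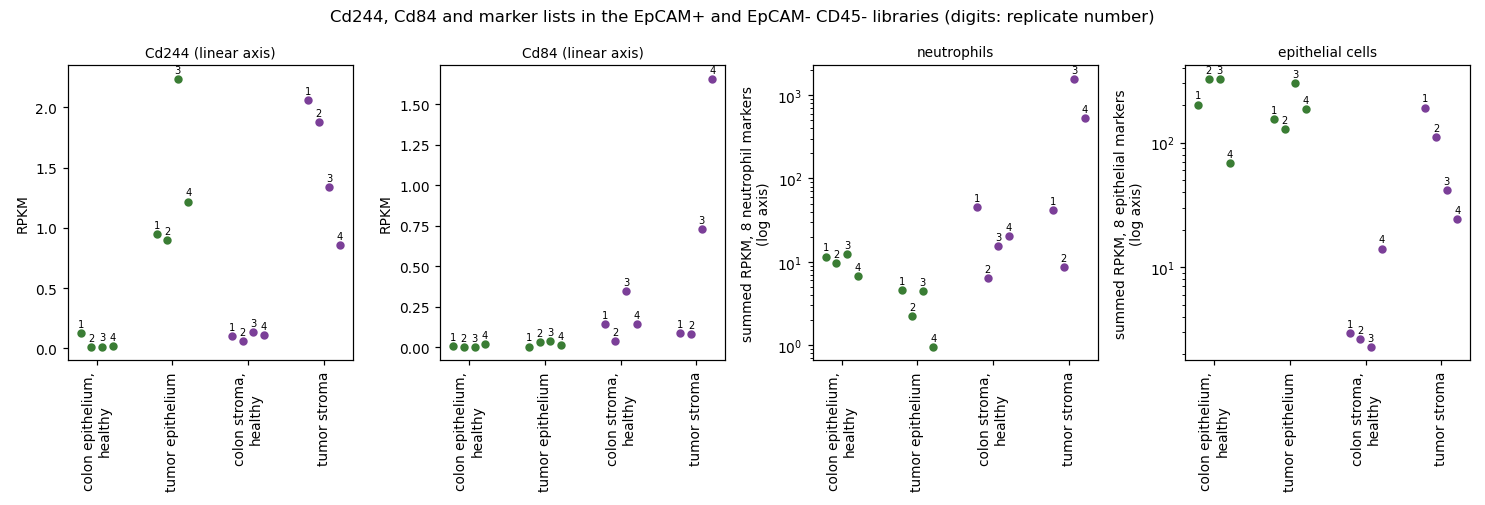
Cd244 and Cd84 (RPKM, linear axes) and the summed RPKM of 8 neutrophil and 8 epithelial markers (log axes) in the 16 epithelial and stromal libraries; digits are replicate numbers. Cd244 is higher in all 4 tumor libraries of each cell type, whereas Cd84 and the neutrophil markers are highest in tumor stromal replicates 3 and 4.

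Of 21 genes that act with the receptors, fixed as a list with earlier results known, few passed. The adaptor Sh2d1a had group means of 0.0269 RPKM or less, and Sh2d1b1 and Sh2d1b2 varied widely between monocyte libraries: Sh2d1b1 was at 0.0244 to 1.88 RPKM in healthy blood, 0.00226 to 1.29 in blood of tumor-bearing mice and 0.246 to 0.805 in tumors, and Sh2d1b2 at 0.0224 to 1.10, 0.00237 to 0.816 and 0.153 to 0.573. In neutrophil libraries they were at most 0.119 and 0.0626. The Src-family kinases Lyn and Fgr had group means of 19.6 to 80.7 RPKM in all 6 myeloid groups. Fyn, the kinase that Sh2d1a recruits, was higher in tumor than in blood monocytes (means 4.40 and 1.21 RPKM; 2.11, SE 0.32, edgeR adjusted p = 0.00148), and was the 1 gene called of 20 tested there. Fyn was lower in neutrophils than monocytes in healthy blood (-2.54, SE 0.76, adjusted p = 0.0187; lost without neutrophil replicates 1 or 3, 0.0511 and 0.0542) and in tumors (-4.58, SE 0.996, adjusted p = 0.0187; lost without neutrophil replicates 3 or 4 or monocyte replicate 1, 0.0512 to 0.0645).

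Prkcq, a protein kinase C downstream of the adaptors, was higher in neutrophils in both comparisons (2.12, adjusted p = 0.000513 in blood; 2.36, adjusted p = 0.0354 in tumors, lost with the replicate block, 0.164, and without either of neutrophil replicates 3 and 4 or any monocyte library) and in tumor epithelium (2.89, SE 0.558, adjusted p = 0.00395, at a mean of 0.180 RPKM). In stroma the phosphatase Ptpn6 (2.59, adjusted p = 0.0328) and the exchange factor Vav1 (1.85, adjusted p = 0.0468) were higher; Ptpn6 passed only without tumor replicate 2 and Vav1 in none of the 8 fits with a library left out. Of the 17 and 20 listed genes tested between tumor-bearing and healthy blood neutrophils and monocytes, and of the 17 tested between tumor and blood neutrophils, edgeR called 0.

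Genes beside the receptors gave a local background. Of 51 other annotated genes between the members or within 100 kb of them, 20 to 26 were tested in each comparison. In healthy blood neutrophils against monocytes, 7 were called higher and 2 lower of 26, next to 2 and 2 of the 8 members. Among them, Gm10521, which lies between Cd84 and Slamf6, was at a mean of 13.2 RPKM in neutrophils and 1.68 in monocytes (3.74, SE 0.486, adjusted p = 0.000207), and Gm37787, which shares exon bases with Slamf7, at 5.36 and 1.08 (3.04, SE 0.537, adjusted p = 0.00117). In tumor epithelium 5 of 20 neighbors were called higher and 0 lower, as were 7.52% and 7.88% of all genes. Those higher included Vangl2 (2.50, SE 0.414), Pea15a (3.05, SE 0.408), Casq1 (5.06, SE 0.826) and Igsf8 (1.52, SE 0.474), which lie between Slamf6 and Slamf8. In tumor against blood neutrophils 1 of 20 was called higher and 1 lower, and in stroma 1 of 25 was called higher. In tumor monocytes Tagln2 was higher (1.83, SE 0.229) and Igsf9 and Itln1 differed by 3.91 and -2.75. No neighbor was called in either blood comparison of tumor-bearing with healthy mice, of 21 and 22 tested, or between tumor neutrophils and monocytes, of 23.

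Across the 10 group means of log2(RPKM + 1), the pattern of Ly9 was most like that of Gm15356 (Pearson r = 0.981), Cntrl (0.978) and March1 (0.972), and that of Cd244 like Map3k15 (0.981), Cln3 (0.977) and Glipr1 (0.977). Cd84 was closest to B430306N03Rik (0.995), Tmem156 and Treml2 (both 0.991), Cd48 to Pot1b (0.994), Rnase6 (0.993) and Cd180 (0.99), and Slamf8 to Arl5c (0.995), B4galt5 and Msr1 (both 0.975). Slamf7 was closest to Gm25109 (0.933) and Gm18301 (0.917). The search covered 4904 genes with a group mean of at least 5 RPKM and the members with at least 1. Among the members themselves, Ly9 and Cd244 (r = 0.91), Cd84 and Cd244 (0.899) and Cd48 and Slamf8 (0.819) were most alike and Cd84 and Slamf8 least (-0.0601). These values describe 10 groups that share library preparation and differ in cell type, and carry no test.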

How the data were processed

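Gene-level expected counts and RPKM of 40 mouse RNA-seq libraries were used. RNA of sorted cells was amplified with a kit that does not mark strand (NuGEN Ovation) and sequenced on a HiSeq instrument; the authors mapped the reads to mm10 with Bowtie2 and counted and normalized them with HTSstation, and deposited estimated counts (not whole for 99.6% of values above 0) and RPKM. The Bowtie2 version is not given in the sources used here. Groups came from the labels.

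Counts were rounded, filtered with filterByExpr and tested with edgeR 4.0.16 (TMM scaling, robust quasi-likelihood, R 4.3.3) on the groups of each comparison alone, with Benjamini-Hochberg adjustment over all genes tested and calls at adjusted p under 0.05 and absolute log2 fold change above 1.5. Alternatives were limma-voom 3.58.1, DESeq2 1.42.0, other size factors, no filter, no fold limit, all 40 libraries, a replicate block, limma on log2(RPKM + 1) and log2(RPKM + 0.1), healthy blood as the reference and each library left out. Leaving out mitochondrial genes, and leaving out both tumor stromal libraries highest in epithelial markers, were chosen after seeing the data. Scripts were tested on simulated data.

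The members, the 21 pathway genes and the 16 marker lists were chosen with earlier results of these data known. The rule named every member, every called pathway gene and the 3 genes most like each member with a group mean of at least 1 RPKM, and some of these genes are not reported here; neighbors were named after their values were seen. Libraries are separate samples by their labels, and p-values measure only the spread between them. The 60 pairs of libraries within groups differed by 21.5 to 852 times the counting error, so none was a duplicate. Intervals on counts cover counting error only. In tumor neutrophils and tumor monocytes, replicates 2 to 4 carry the same animal numbers in their titles (T3, T4 and T5), so the block applies to those. Replicates 1 of these 2 groups carry different animal numbers, and the block joined them all the same, so it is not a full pairing by animal. Elsewhere most libraries with the same number come from different animals, although a few animals recur: by title, replicates 1 of tumor and blood monocytes share an animal, tumor neutrophil replicate 4 and blood neutrophil replicate 2 share another, and the healthy neutrophil animals are those pooled in healthy monocyte replicates 3 and 4.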

Additional observations from a re-analysis of the deposited data

Results flagged for a closer look

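Of 69 sets of 4 libraries, 1 for each member and group with at least 20 counts in a library, 10 held a library that stood far from the other 3, by a gap beyond Dixon's critical value for the whole range. Chance flags about 1 in 20 such sets if the values are normally distributed. The values used were RPKM without a log scale, many at few counts, so that rate need not hold here.

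Slamf7 accounted for 3 of them. In tumor monocytes it was at 12.0 RPKM in replicate 1 and 0.765 to 1.3 in the others, in healthy blood neutrophils at 3.55 in replicate 3 and 2.34 to 2.45 in the others, and in healthy epithelium at 0.245 in replicate 4, the library with most mitochondrial RNA, and 0.00275 to 0.00581 in the others.

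Slamf1 was at 0.739 RPKM in tumor neutrophil replicate 2 (0.00796 to 0.056 in the others) and at 0.153 in blood monocyte replicate 2 of tumor-bearing mice (0.0194 to 0.0286). Cd244 was at 0.127 RPKM in healthy epithelial replicate 1 (0.0124 to 0.0226). Cd84 was at 2.39 RPKM in tumor monocyte replicate 4 (1.51 to 1.56). Slamf6 was at 0.738 RPKM in tumor stromal replicate 4 (0.0263 to 0.091), Slamf9 at 1.70 in healthy blood monocyte replicate 1 (0.148 to 0.372) and Slamf8 at 0.264 in healthy stromal replicate 3 (0.055 to 0.0845). Each of the 10 was the highest library of its group.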

How the results depend on the processing

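With the replicate number as a block, the members called were 3 in tumor against blood neutrophils, 1 in tumor against blood monocytes (2 without the block), 0 in both blood comparisons, 1 each in epithelium and stroma, 5 in healthy neutrophils against monocytes and 4 in tumor neutrophils against tumor monocytes. Deviations of same-numbered libraries correlated at -0.252 to 0.25, with no comparison above 0.1 in every pair.

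With all 40 libraries in the fit, 5 members were called in tumor against blood neutrophils (3 in the main fit), 1 in monocytes (2), 2 in epithelium (1), 3 in stroma (1) and 8 in tumor neutrophils against monocytes (5). DESeq2 called 1 in blood neutrophils (0), 3 in epithelium, 2 in stroma, 3 in tumor against blood monocytes, 5 in healthy neutrophils against monocytes (4) and 6 in tumor neutrophils against monocytes, and limma-voom 2 in epithelium, 4 in tumor against blood neutrophils and 4 in tumor neutrophils against monocytes. On log2(RPKM + 1), 1 was called in tumor against blood monocytes, 0 in epithelium, 0 in stroma, 2 in healthy neutrophils against monocytes (4) and 3 in tumor neutrophils against monocytes; on log2(RPKM + 0.1), 1 in tumor against blood monocytes and 2 in epithelium. Without the filter, 1 was called in tumor against blood monocytes, and without both tumor stromal libraries highest in epithelial markers, 3 in stroma. With single libraries left out, the counts were 3 to 4, 0 to 3, 0 to 1 and 0 to 0 (tumor against blood neutrophils, tumor against blood monocytes, blood neutrophils, blood monocytes), 1 to 3 in epithelium, 1 to 1 in stroma, 4 to 5 in healthy neutrophils against monocytes and 1 to 5 in tumor neutrophils against monocytes. The cause was not tested, except that a pseudocount shrinks the fold of low genes.

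Cd244 in tumor neutrophils against monocytes changed sign without the filter (-0.0231), with all 40 libraries (-0.0279), on log2(RPKM + 1) (-0.374) and log2(RPKM + 0.1) (-0.445) and with single libraries left out (-0.0994 to 0.265). Slamf7 in epithelium changed sign with limma-voom (2.05), the replicate block (2.37), log2(RPKM + 1) (0.0352), log2(RPKM + 0.1) (0.395) and with single libraries left out (-2.34 to 4.07, the latter without healthy replicate 4). In tumor neutrophils against monocytes, Slamf7 missed the limit with limma-voom (adjusted p = 0.0678). Cd48, a description in that comparison, missed it without the filter. Of 410 fold changes under other settings, 343 kept their direction and side of the limits, and of 320 with a library left out, 259.

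All genes called ranged over the settings from 680 to 5999, 520 to 3129, 130 to 1083, 4 to 331, 575 to 3634, 462 to 3479, 1635 to 7634 and 518 to 4186, in the order tumor against blood neutrophils, tumor against blood monocytes, blood neutrophils, blood monocytes, epithelium, stroma, healthy neutrophils against monocytes and tumor neutrophils against monocytes. On log2(RPKM + 0.1), the share of calls that were higher moved from 73.0% to 59.6% in tumor against blood neutrophils, 66.6% to 46.6% in tumor against blood monocytes, 48.8% to 74.1% in epithelium, 40.4% to 24.6% in stroma, 45.0% to 22.8% in healthy neutrophils against monocytes and 62.4% to 32.4% in tumor neutrophils against monocytes, and the median of all genes moved by -0.155, -0.231, 0.586, -0.327, -0.556 and -0.456. Members at a few counts (Slamf1, Slamf6 and Slamf9 in most groups, and most members in epithelium) are limited by depth.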
